A study of Mus musculus with 10 samples.

Results

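Broad H3K4me3 domains are stretches of chromatin in which nucleosomes carrying trimethylated lysine 4 of histone H3 run on for several kilobases. They were mapped in the neurons of hippocampal area CA1 of the mouse from 8 deposited peak lists. Peaks were merged within each list, and all 8 lists were joined into 90512 autosomal regions. A domain was a region in which peaks covered at least 4000 bp in every one of the 8 libraries, and 563 regions (0.622%) met this rule. Of the 22694 regions with a peak in all 8 libraries, the domains made up 2.48%. The covered lengths chose the domains, so their widths are given as a description and without a test.

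The 8 libraries came from chromatin immunoprecipitation and sequencing of NeuN-positive sorted nuclei. Of these, 4 were labelled CamkdeltaC transgenic and 4 were littermate controls of wildtype genotype. All were male and 3 months old, and the treatment text, shared by all samples, tells of vorinostat, an inhibitor of histone deacetylases, or vehicle in the drinking water of transgenic mice and vehicle in that of the controls. Which of these a transgenic library received is not labelled. CaMKIIδC is a splice form of calcium/calmodulin-dependent protein kinase II delta, and mice that overexpress it are known as a model of heart failure. The promoter that drives the transgene is not given in the sources used here. Whether the libraries of a group stem from different animals is not labelled, so a p-value here sets a difference against the spread among these libraries, which may be technical.

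H3K4me3 is written by the SET1 and MLL families of methyltransferases, which are recruited in part by unmethylated CpG-rich DNA at promoters. Most active promoters carry a short block of the mark on the first nucleosomes after the start of transcription. A small set of promoters carries it for many kilobases, and such domains are known from many cell types for lying over the genes that define the identity of the cell. In neurons they are known over transcription factor genes of the forebrain and over genes of the synapse.

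The widest domain of all lay over Mir9-2, and the sequences below are mature microRNAs of selected genes in wide microRNA domains, credited to RefSeq on GRCm38.p6. Some microRNA genes in wider domains than that of Mir137 are left out. Among these are Mir124a-2 and Mir124a-1, whose mature sequences were not in the sources used. Capitals mark the seed, bases 2 to 8 from the 5′ end, which pairs with target messenger RNAs. Mir9-2 and Mir9-3, the genes of 2 separate domains on chromosomes 13 and 7, encode the same pair of mature sequences. MiR-9 and miR-137 are microRNAs of neural progenitors and neurons, and miR-125b is a homologue of the worm microRNA lin-4.
miR-9-5p: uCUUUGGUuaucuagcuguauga
miR-9-3p: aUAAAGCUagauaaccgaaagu
miR-125b-5p: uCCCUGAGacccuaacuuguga
miR-129-5p: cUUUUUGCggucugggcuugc
miR-137-3p: uUAUUGCUuaagaauacgcguag

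Next come 3 promoter windows of wide domains on the plus strand, each from 250 bases before to 50 bases after an annotated start of the gene, from RefSeq on GRCm38.p6. They lie at chr1:42695518-42695817 (Pou3f3), chr11:24080445-24080744 (Bcl11a) and chr7:3393792-3394091 (Cacng8), and capitals mark the dinucleotide CG. They are shown because windows at starts within the widest domains differ in CpG content. The Pou3f3 window holds 18 CG and the Bcl11a window 23, while the Cacng8 window holds 2. The 3 domains run further upstream than downstream of these starts, unlike 288 of the 300 domains measured below. Their highest summits lie outside the windows, upstream at -602.5 bp for Pou3f3, -1609 bp for Bcl11a and -2723 bp for Cacng8. Whether these annotated starts are the ones used in these neurons was not tested.
Pou3f3: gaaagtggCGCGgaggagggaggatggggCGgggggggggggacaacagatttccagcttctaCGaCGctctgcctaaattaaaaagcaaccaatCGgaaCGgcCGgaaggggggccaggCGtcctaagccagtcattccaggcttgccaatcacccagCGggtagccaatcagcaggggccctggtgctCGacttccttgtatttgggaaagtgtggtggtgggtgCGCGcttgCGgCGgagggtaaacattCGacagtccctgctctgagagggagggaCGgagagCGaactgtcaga
Bcl11a: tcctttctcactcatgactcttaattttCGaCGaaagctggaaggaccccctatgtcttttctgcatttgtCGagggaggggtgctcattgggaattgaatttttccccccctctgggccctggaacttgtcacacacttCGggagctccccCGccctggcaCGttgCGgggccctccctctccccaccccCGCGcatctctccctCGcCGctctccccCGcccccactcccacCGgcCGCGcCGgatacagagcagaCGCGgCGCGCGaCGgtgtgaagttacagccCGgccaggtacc
Cacng8: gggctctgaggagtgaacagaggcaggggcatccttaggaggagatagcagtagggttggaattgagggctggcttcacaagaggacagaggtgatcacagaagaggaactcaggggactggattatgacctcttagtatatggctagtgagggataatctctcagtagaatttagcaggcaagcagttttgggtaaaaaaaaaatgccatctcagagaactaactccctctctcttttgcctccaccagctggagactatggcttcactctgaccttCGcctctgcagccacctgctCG

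The domains had a median width of 5229 bp, taking for each domain its covered length averaged over the 8 libraries, and the range ran from 4149 to 20731 bp. Of the 563, 220 were under 5 kb and 18 were at least 10 kb. The widest, at chr13:83718528-83741223, held Mir9-2 and its overlapping noncoding genes and no protein-coding gene. It covered 20408, 20126, 20252 and 20606 bp in control replicates 1 to 4 and 21007, 21046, 20875 and 21530 bp in the transgenic libraries. All 4 transgenic values lay above all 4 control values, as in 4.1% of all regions tested below. Set relative to each library, the difference had the opposite sign. It also held the longest single peak, with a mean of 13036 bp.

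The next widest domains over coding genes lay at forebrain transcription factors. Pou3f3, a POU-domain factor of upper-layer and hippocampal neurons, covered 15751, 15399, 14546 and 16904 bp in the controls and 16248, 16380, 16702 and 17469 bp in the transgenic libraries (chr1:42683992-42702747). Its groups overlapped through control replicate 4. Myt1l, a zinc-finger factor that represses non-neuronal genes, covered between 13153 and 13494 bp in the 8 libraries (chr12:29525673-29539632), a coefficient of variation of 0.982%. The groups of Myt1l values, as deposited, lay over one another. Set relative to each library, the log2 difference was -0.10 ± 0.03 (SE, limma adjusted p = 0.363), where all domains had a median of -0.07. Only the Sfi1 domain, with 0.965%, was more constant among the 563. Its summit was 6.13-fold, the lowest of all domains, and it is one of the low domains below whose place is uncertain.

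Below them stood Nr2f1, Nfix and Meis2, all transcription factors of the developing forebrain, and Cacng8, an auxiliary subunit of AMPA-type glutamate receptors. Their mean widths were 11134 bp for Nr2f1, 10980 bp for Nfix, 10955 bp for Cacng8 and 10868 bp for Meis2. Each of these 4 differed from the next by less than their own spread over libraries, with SDs for the control group of 553, 261, 590 and 1128 bp in the same order. Grin2b and Grin2a, subunits of the NMDA receptor, followed with 10594 and 10457 bp, and between them stood Bcl11a, a zinc-finger factor of projection neurons, with 10496 bp. Bcl11a, with a mean of 10022 bp, had the longest single peak after Mir9-2.

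**Figure D1:**
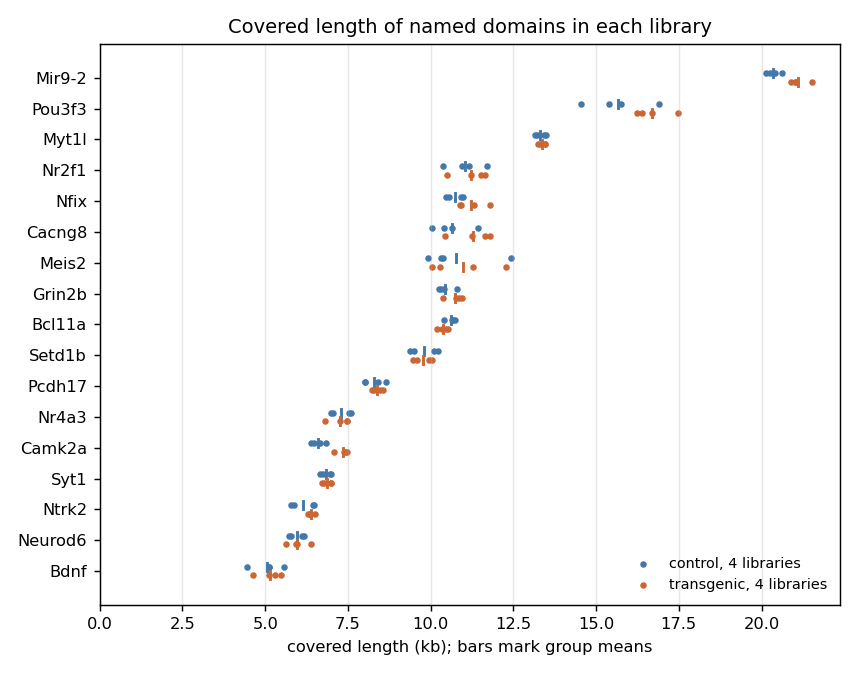
Covered length in kb (horizontal axis) of 17 named domains in each of the 4 control and 4 transgenic libraries, with a bar at each group mean. Mir9-2 and Camk2a are the domains shown whose transgenic points all lie above their control points, as in 4.1% of all regions tested. For the other domains shown the groups overlap.

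The domain at chr15:85668726-85684688 came after Mir9-2 and Pou3f3 in width, with a mean of 14374 bp, and overlapped no annotated gene. Its highest summit was enriched 42.3-fold over the caller's background, a value of the authors. The nearest annotated gene was the noncoding Lncppara at 19085 bp, and the nearest coding gene was Ppara, a nuclear receptor of lipid metabolism, at 50222 bp. It covered 13202, 13749, 14231 and 14511 bp in the controls and 14353, 14958, 14660 and 15327 bp in the transgenic libraries.

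At the minimum itself, the domains just inside were those of Zfp992 and of Mepce with Zcwpw1, whose narrowest library had 4003 bp each, and of Mir99ahg with 4006 bp. The regions just outside were those of Dpysl2 with 3997 bp, Klf12 with 3993 bp and Enox1 with 3992 bp. Their mean widths were 4515 bp for Dpysl2 and 4484 bp for Mepce with Zcwpw1, so the line divides regions of like width. In all, 1233 regions reached 4000 bp in at least 1 library, 90 of them in 7 of the 8 and 187 in a single library.

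Most domains were made of more than 1 peak. The median number of peaks in a domain, averaged over libraries, was 2.25. In 160 domains the covered length was broken by a gap in all 8 libraries, and in 13 it was 1 unbroken peak in all 8. The widest of these 13 was at Adcy9, an adenylyl cyclase, with 7151 bp, and Tmem178b (5665 bp), Gpr85 (5575 bp) and Grm5 (4520 bp), a metabotropic glutamate receptor, were among the others.

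The stretch covered in all 8 libraries at once was a median of 73.4% of the joined domain, and 385 domains held at least 4000 bp of it. The outer edges moved little between libraries, with median SDs over the 8 libraries of 122 bp on the left and 125 bp on the right. The coefficient of variation of covered length had a median of 5.25% over the domains. It was 7.55% in the 3023 regions whose narrowest library had 2 kb or more but less than the minimum (the class from 2 kb), and 9.62% in the 7375 regions with at least 1 kb but under 2 kb there (the class from 1 kb). Covered length chose all 3 classes, so these values are given without a test.

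By summit height the domains were divided into a large tall set and a small low one. The height used here is the fold enrichment at the highest summit in a domain, averaged over libraries, a value of the authors that describes peaks within a list. In 34 domains it was under 15, with a median of 8.76, and in 529 it was higher, with a median of 42.8. The value of 15 was chosen after the heights were seen, and the next domain above it had 15.8. Across the 529 tall domains, which share their libraries, width and height had a Spearman correlation of -0.00822. The tallest were at Kmt2a (64.5-fold) and Kmt2e (63.3-fold), of which Kmt2a encodes an H3K4 methyltransferase.

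**Figure D2:**
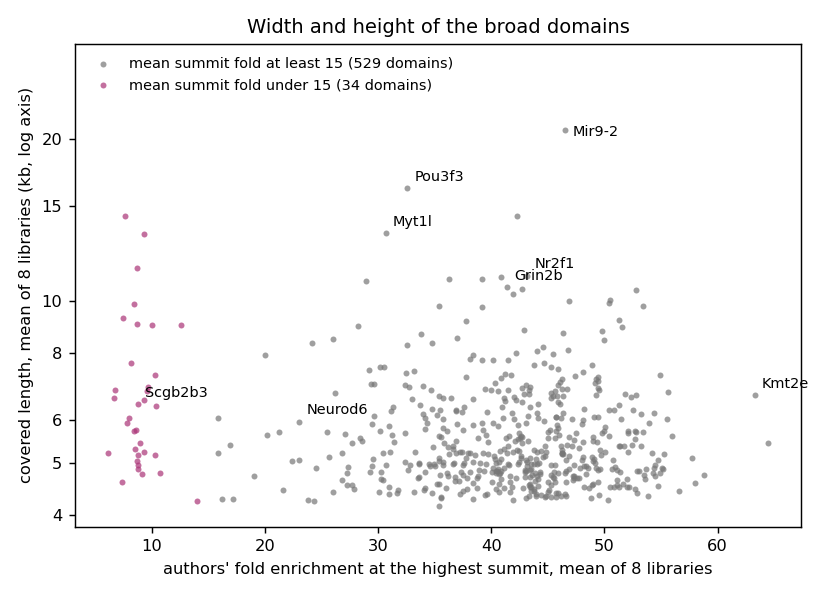
Mean covered length in kb on a log axis (vertical) against the authors' fold enrichment at the highest summit, mean of 8 libraries (horizontal), for the 563 domains. The 34 domains under 15-fold lie at the left with widths up to 14360 bp, and the 529 others show no slope of width with height.

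The low domains lay largely away from promoters. Of the 34, 18 overlapped no gene, 6 overlapped a pseudogene, 6 lay inside a coding gene, 2 held a noncoding gene alone, and 2 held the start or end of a coding gene. The low domains gathered on chromosome 4, which held 18, and 14 of these lay between 145404138 and 147608861 in a stretch with the zinc-finger genes Zfp992, Zfp993 and Zfp982. Others lay close to the first sequenced bases of a chromosome, as at chr17:3005822-3023923, chr3:3021147-3033696 and chr16:3231468-3241805, or at the secretoglobin genes Scgb2b3 and Scgb2b24.

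The low domains were also more broken and less constant. They held a median of 5.12 peaks against 2.12 in the tall ones, their coefficient of variation had a median of 9.39% against 5.13%, and the stretch shared by all libraries was 58.0% against 73.9% of the domain. The domain at chr17:3005822-3023923 held the most peaks, 17.6 on average, and varied most, with 28.3%. Genes and pseudogenes of these families have near-identical copies, and how the authors placed reads that match several copies is not given in the sources used here. The place of these 34 domains is therefore uncertain, and the part that such reads have in them was not tested.

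Nearly all tall domains lay on genes. Of the 529, 341 held the annotated start of a coding gene, 101 held an end of a coding gene whose strand the annotation used does not give, 68 lay inside a coding gene and 17 held a noncoding gene alone. The 2 that overlapped no gene included the wide domain on chromosome 15. Tall and low together, the 444 domains with a start or end of a coding gene held 486 coding genes, 2.35% of the 20665 autosomal ones. In 47 domains there was more than 1 coding gene, and in 27 there were starts on both strands. The share of regions with a coding gene, 78.9%, was below the 84.4% of the class from 2 kb and the 81.2% of the class from 1 kb.

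Several wide domains lay inside a gene, away from its outer ends. Tcf4, a basic helix-loop-helix factor, held 3 of them, of 8670, 7538 and 7436 bp. Zbtb20, a factor of hippocampal identity, held one of 8485 bp, and Nrxn2, a presynaptic adhesion protein, one of 7607 bp. Coding genes with a domain had a median length of 41.4 kb, and those of the narrower classes 31.2 kb and 24.7 kb, a description without a test.

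Domains reached much further downstream of the start than upstream of it. This was measured in the 300 domains with 1 coding gene and starts on a single strand, from the most upstream start in the domain. The outer edge lay a median of 920 bp upstream and 4462 bp downstream of the start, and the highest summit lay 574 bp downstream. The downstream arm was the longer in 288 of the 300 (96%). The narrower classes leaned the same way, with 718 bp upstream and 2310 bp downstream in 1712 regions of the class from 2 kb, and 532 and 1200 bp in 4504 regions of the class from 1 kb. Measuring from the most upstream start makes the upstream arm shorter and the downstream arm longer for genes with several starts. In short genes the downstream arm can run past the gene, as at Sstr4, with 5627 bp for a gene of 1388 bp. Wide regions were chosen by their length, so these arms are a description.

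**Figure D3:**
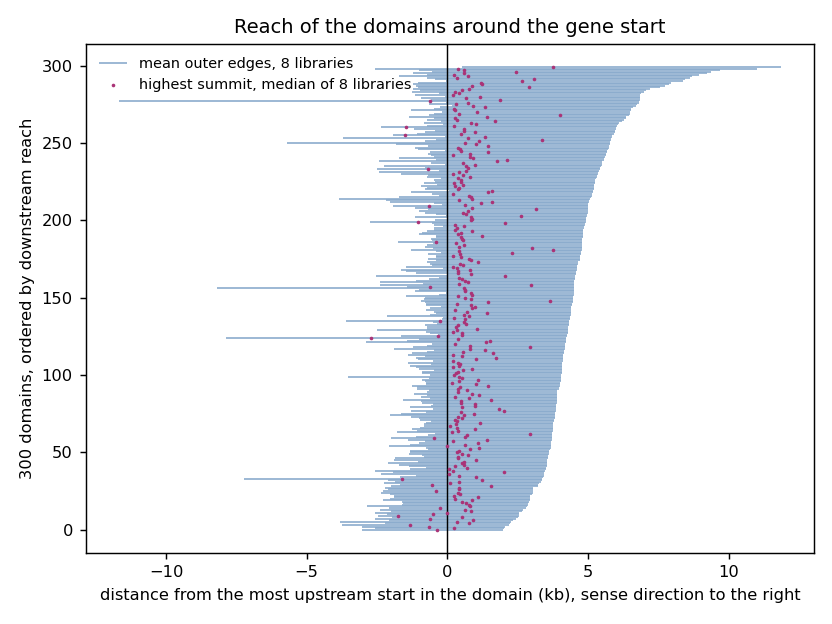
Mean outer edges (bars) and median highest summit (points) of 300 domains with 1 coding gene and starts on 1 strand, as distance in kb from the most upstream start, with the sense direction to the right, ordered by downstream reach. In 288 domains the bar is longer to the right of the start, and the points gather at a median of 574 bp past it.

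The promoters in the domains were richer in CpG than those of all coding genes, but not richer than those in the classes from 2 kb and from 1 kb. The 471 promoter windows of 300 bases in domains had a median of 7 CG per 100 bases, a GC content of 62.7% and an observed to expected CpG ratio of 0.714. The 2899 windows in the class from 2 kb had 8 CG per 100 bases, 64.7% and 0.811, and the 20085 windows of all autosomal coding genes had 4.67, 57% and 0.586. The class from 1 kb had 7.33, 62% and 0.804, and the 12856 windows in any autosomal region had 7, 61.7% and 0.763. A GC box, searched as GGGCGG on both strands, stood in 59.4% of domain windows, 70.6% of the next class and 47.0% of all windows. The letters TATAAA, the core of the TATA box, stood in 8.07%, 5.48% and 12.7%. The letters CCAAT were in 36.7%, 35.3% and 38.1%, and the full cyclic AMP response element TGACGTCA in 3.18%, 3.35% and 2.30%. The GC box stood in 69.1% of windows in the class from 1 kb and in 65.4% of windows in any autosomal region. Windows of 1 gene can overlap, and a match of letters is a description of the window only.

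Genes of forebrain projection neurons and of synaptic contact had the highest shares in domains among the 24 gene lists, which were chosen with earlier results of these data known. Of 36 autosomal genes of projection neuron factors, 20 (55.6%) had a start in a domain, against 2.35% of all autosomal coding genes. Besides the wide ones above these were Nfib (10299 bp), Zeb2 (9168 bp), Zbtb18 (7757 bp), Fezf2 (7531 bp), Lhx2 (7410 bp), Bcl11b (7354 bp) and Tbr1 (6498 bp), with Neurod6, Sox11, Sox4, Klf9, Emx1, Emx2 and Neurod2 at 4719 to 5959 bp. Counting genes with a domain anywhere along their length, the list reached 24 of 36, against 2.86% of all coding genes.

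Of 55 adhesion and guidance genes, 27 (49.1%) had a domain at their start. Pcdh17, a protocadherin, covered 8012, 8421, 8661 and 8022 bp in the controls and 8565, 8302, 8220 and 8460 bp in the transgenic libraries, and its groups overlapped. Pcdh9 followed with a mean of 8072 bp, Pcdh10 with 7767 bp and Nrp1, a semaphorin receptor, with 7651 bp. Postsynaptic organisers were among the 27, namely Lrrtm1, Lrrtm2 and Lrrtm3 (5711 to 6786 bp), Slitrk1, Slitrk3 and Slitrk5 (4932 to 6872 bp), and the neuroligins Nlgn1 (4882 bp) and Nlgn2 (5369 bp).

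Of 46 glutamatergic synapse genes, 16 (34.8%) had one. They included the AMPA receptor subunits Gria1 (8006 bp) and Gria2 (6415 bp), the kainate receptor subunit Grik2 (8466 bp), the scaffold proteins Homer1 (6250 bp) and Dlg4 (4580 bp), and Slc17a7 (5543 bp), the vesicular glutamate transporter of hippocampal principal cells. Grin2b covered 10246, 10810, 10415 and 10319 bp in the controls and 10937, 10773, 10868 and 10381 bp in the transgenic libraries, and its groups overlapped. Of 20 genes of GABA and glycine receptors 1 had a domain, Gabra2 with 4962 bp.

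Ion channel and release genes had shares of 21.2% and 15.8%. Of 52 voltage-gated channel genes 11 had a domain, led by Kcnd2, an A-type potassium channel, with 5552 bp and Cacna1e, an R-type calcium channel, with 5298 bp. Of 38 vesicle release genes 6 had one, led by Syt1, the calcium sensor of release, with 6850 bp and Snap25, a SNARE protein, with 5734 bp.

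Among calcium/calmodulin kinase genes, the family of the transgene, 5 of 16 (31.2%) had a domain. Camk2a, the alpha subunit of the kinase, covered 6463, 6830, 6379 and 6667 bp in the controls and 7066, 7458, 7378 and 7447 bp in the transgenic libraries (chr18:60924595-60932559). Its 4 transgenic values lay above its 4 control values, as in 4.1% of all regions tested below. The others included the calmodulin gene Calm2 (6171 bp), the kinase-like Camkv (5198 bp) and the kinase kinase Camkk1 (4510 bp). Camk2d, the gene whose product the transgene supplies, was not a domain, with a mean of 3013 bp in the region at its start.

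Genes of the immediate early response, which neuronal activity induces, had 10 domains for 39 genes (25.6%). The widest were Nr4a3 (7271 bp), an orphan nuclear receptor, Fosl2 (6928 bp), an AP-1 subunit, and Plk2 (6656 bp), a kinase. Bdnf, a neurotrophin, covered 4453, 5103, 5574 and 5115 bp in the controls and 4639, 5487, 5124 and 5286 bp in the transgenic libraries. Its receptor gene Ntrk2 had a domain of 6262 bp, and these 2 were the domains of the 18 neurotrophin and CREB genes. Egr1 had 4819 bp, while Npas4 (4280 bp) and Fos (3777 bp) fell short of 4000 bp in at least 1 library.

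Of 26 microRNA genes and hosts of neurons, 8 (30.8%) lay in domains. All 3 genes of miR-124, the most abundant microRNA of neurons, were among them, with 6828 bp at Mir124a-2, 6701 bp at Mir124a-1 and 5214 bp at Mir124a-3. Mir9-3 had 10006 bp, Mir125b-1 7016 bp and Mir137 6609 bp. Mir9-1, the remaining gene of miR-9, had a mean of 4020 bp and missed the minimum in at least 1 library. Over the genome, 14 domains held 21 of 1136 autosomal microRNA genes.

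Of 19 genes listed under H3K4 methyltransferase complexes, 3 had domains. Setd1b (9776 bp) and Kmt2a (5444 bp) encode enzymes that write the mark, and Kmt2e (6678 bp) encodes a relative that is not known to write it. None of the 8 demethylase genes and none of the 22 acetylation genes did, the widest of these being Rcor3 at 3232 bp and Hdac5 at 4060 bp. Of 32 Polycomb and BAF genes, Arid2 (6043 bp), Jarid2 (4926 bp) and Kdm2b (4409 bp) had one.

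No domain lay at a start of the 41 ribosomal protein, 35 oxidative phosphorylation or 31 proteasome genes, although 41, 34 and 31 of them had a peak there. Their median widths were 1894, 1978 and 1740 bp. The 37 developmental factors of other lineages had no domain either, and 27 of them had no peak at their start in any library.

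Markers of other cell types were used to check the label of neuronal nuclei. No domain lay at a start of the 20 astrocyte, 18 microglia or 18 endothelial genes, and 14, 3 and 4 of these had a peak there. The widest of the astrocyte peaks was at Sox9, with a mean of 4127 bp, followed by Glul with 2758 bp and Id4 with 2447 bp. Slc1a2, the main glutamate transporter of astrocytes, had no peak at its listed start but held a domain of 4907 bp within the gene, the one such case in these 3 lists. Gfap, Aqp4, Cx3cr1 and Csf1r were among the genes with no peak at their start. Of 19 oligodendrocyte lineage genes 1 had a domain, Sox8 (4972 bp), and 10 had no peak. Of 26 interneuron genes Nr2f1 and Cck (5228 bp) had one, and Gad1 had 3261 bp. Of 22 markers of CA1, CA3 and dentate gyrus, Man1a (7192 bp), a mannosidase, and Neurod6 (5959 bp) had one.

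**Figure D4:**
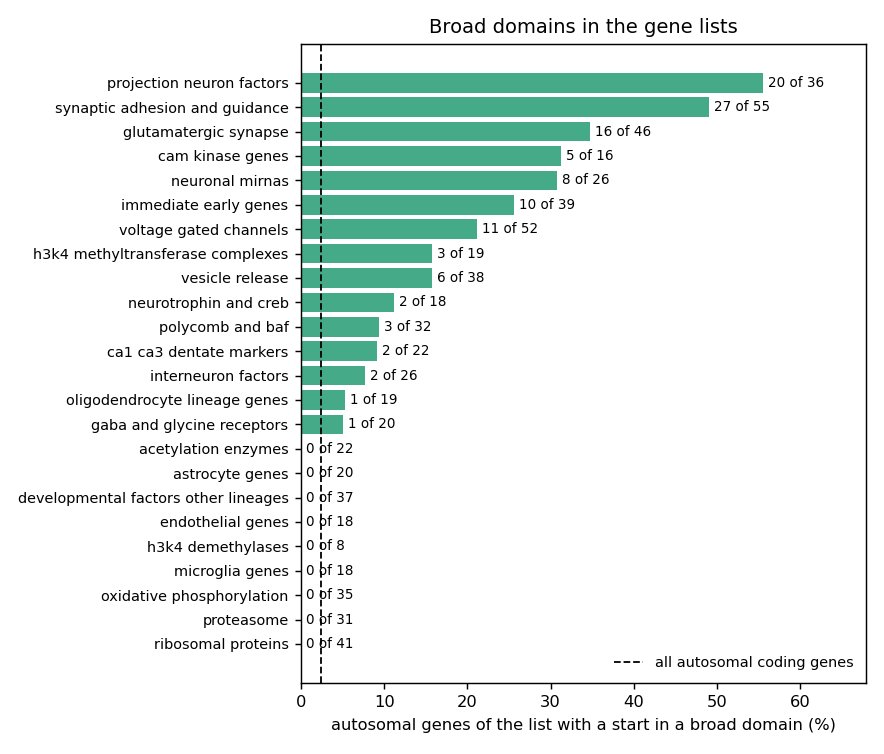
Share of the autosomal genes of each of 24 lists with a start in a broad domain, in %, with the numbers of genes beside the bars and a dashed line at the share of all autosomal coding genes (2.35%). Projection neuron factors (55.6%) and adhesion and guidance genes (49.1%) lead, and 9 lists have no domain.

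The libraries differed in how much they covered. The lists held 51903 to 66811 peaks in the controls and 60388 to 102285 in the transgenic group, where transgenic replicate 1 stood apart with the most peaks and a median domain summit of 32.8-fold against 37.7 to 46.7-fold in the other libraries. The lists give no read counts, so depth is unknown, and depth and the yield of the precipitation both act on the number and width of peaks. Regions of at least 4000 bp numbered 701, 803, 746 and 910 in control replicates 1 to 4 and 850, 921, 908 and 994 in the transgenic libraries. The group means were 790 ± 90.2 and 918 ± 59.2 (SD, n = 4 each), and the difference of 128 did not pass an exact two-sided permutation test (p = 0.0857, the smallest possible being 0.0286). Without control replicate 4, the difference was 168 with the smallest possible p of 0.0286.

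The 563 domains summed to 3.13, 3.24, 3.17 and 3.31 Mb in the controls and 3.24, 3.34, 3.32 and 3.39 Mb in the transgenic libraries. That was 8.67, 8.50, 8.31 and 7.95% of the autosomal length covered in the controls and 6.93, 7.46, 7.61 and 7.76% in the transgenic libraries. The transgenic shares all lay below the control shares, while the total covered autosomal length ran from 36.2 to 41.6 Mb in the controls and from 43.6 to 46.7 Mb in the transgenic group. These shares were not tested, and group and total covered length cannot be told apart.

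Whether domains were wider or narrower in transgenic mice was asked by fitting covered length in the 57553 autosomal regions that had peaks in 2 or more libraries. Lengths were taken as log2(bp + 100 bp) and set relative to each library's median over regions present in all 8, and groups were compared with limma and Benjamini-Hochberg adjustment. A domain is required to be wide in every library, so a region lost or gained across the minimum in one group is not among them. In bulk libraries fewer nuclei of a type and less mark per nucleus cannot be told apart.

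No domain passed an adjusted p of 0.05 with limma, where 10 regions did (0.0174%), all broader in the transgenic group. At an unadjusted p under 0.05, 10 domains were broader, against 6.77% of all regions, and 153 were narrower, against 2.52%. The median SE was 0.05 for domains, 0.15 for the other regions in all 8 libraries and 0.58 for all regions tested. A difference of the same size thus reaches a small p more readily in domains, and these shares are not like for like. Without trended or robust variance, 2 domains were broader and 0 narrower at this limma p. The median difference of the domains, transgenic minus control, was -0.07 on the log2 scale, and 501 of the 563 lay below 0. The other regions with a peak in all 8 libraries had a median of -0.06, with 63.8% below 0, and all regions tested had 0.03.

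This direction depended on the scaling. With the lengths as deposited the domains' median was 0.03, 439 lay above 0, and the same other regions had 0.05 with 66.2% above 0. Setting lengths relative to each library moved the median of all regions by 0.107. With the lengths as deposited, 51 domains were broader at an unadjusted p under 0.05, against 9.82% of all regions, and none narrower, against 0.354%. In that fit 1 domain, chr4:3061507-3071879, was called with a limma adjusted p of 0.0480, against 0.0678% of regions. The direction of the domains as a set is therefore not fixed by these lists.

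**Figure D5:**
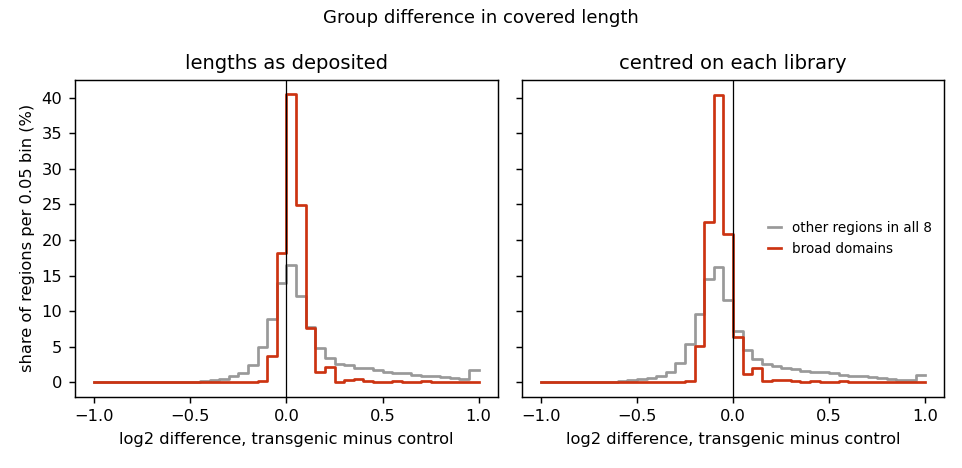
Share of regions per bin of 0.05 (vertical, %) by log2 difference in covered length, transgenic minus control, for the 563 domains and for the other regions with a peak in all 8 libraries, with lengths as deposited (left) and relative to each library (right), the outermost bins also holding values beyond them. The domains' medians are 0.03 and -0.07, on the 2 sides of 0.

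A long covered length in every library was the rule itself, so the spread of lengths in domains is bounded by how they were chosen. The coefficients of variation given above for domains and narrower classes share this limit and do not show that domains are unusually constant. The 95% interval of the difference stayed within 1.5-fold in either direction for 561 of the 563 domains, the exceptions being chr17:3005822-3023923 and Scgb2b3. Over the joined length of the domains, 3704982 bp, 4606 bp were covered in all 4 transgenic and no control libraries, and 439 bp in all 4 control and no transgenic ones. The low domains, 288553 bp of the joined length, held 1568 bp of the former and 10 bp of the latter. The transgenic lists covered more in total, and the like values over all regions were not computed, so these lengths are a description.

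The 5 narrower domains with the smallest p, none of which passed the test, were at Bcl11a, Cdk5r1 with Myo1d, Lrfn5, Pcdh9 and Mir129-2. Bcl11a covered 10672, 10401, 10635 and 10747 bp in the controls and 10349, 10189, 10520 and 10452 bp in the transgenic libraries, which gave -0.14 ± 0.03 (SE) on the log2 scale with a limma adjusted p of 0.235. The groups overlapped in their raw lengths. Cdk5r1 with Myo1d, where Cdk5r1 encodes the activator p35 of the kinase Cdk5, gave -0.17, Lrfn5, a synaptic adhesion protein, -0.20, Pcdh9 -0.13 and the Mir129-2 domain -0.13, each with a limma adjusted p of 0.277. With the lengths as deposited the differences were closer to 0, with -0.03 for Bcl11a, -0.07 for Cdk5r1 with Myo1d, -0.09 for Lrfn5, -0.02 for Pcdh9 and -0.03 for Mir129-2, and limma adjusted p from 0.529 to 0.945. No domain had all control lengths above all transgenic ones, against 0.214% of regions tested.

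The broader domains with the smallest p were all of the low set. At chr17:3005822-3023923 lengths were 8261, 7781, 9647 and 9068 bp in the controls and 16339, 12004, 14458 and 14271 bp in the transgenic libraries, which gave 0.60 ± 0.10 (SE) on the log2 scale with a limma adjusted p of 0.264. The groups stood apart. The others were chr7:18379883-18388453 (0.31, limma adjusted p = 0.348), chr17:39321029-39328999 (0.27, 0.386), chr4:3061507-3071879 (0.14, 0.391) and Gm40904 on chromosome 13 (0.09, 0.528). With the lengths as deposited chr17:3005822-3023923 had 0.71, chr4:3061507-3071879 0.25 and Gm40904 0.20. Of the 10 broader domains at an unadjusted p under 0.05, 9 were low, and the 34 low domains had a median of 0.08, with 23 above 0. With the lengths as deposited, all 34 lay above 0.

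The 529 tall domains, by contrast, had a median of -0.08, and 490 lay below 0. With lengths as deposited their median was 0.03, and 405 lay above 0. The single tall domain that was broader at an unadjusted p under 0.05 was at Fam131a (4750, 5153, 4703 and 5488 bp in the controls, 5283, 5923, 5820 and 6421 bp in the transgenic libraries), with 0.11 and a limma adjusted p of 0.537. The low and tall sets were divided after their values were seen, and the difference between them was not tested.

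In 29 domains every transgenic length lay above every control length, against 4.1% of all regions and 5.18% of the other regions present in all 8. This is 5.15% of the domains, near both backgrounds. The tall ones among them were 16, namely Mir9-2, Grik2, Fezf2, Man1a, Camk2a, Kmt2e, B3galt2, Prkce, Sorcs3, Rasal1, Kctd4, Gabra2, Kalrn, Megf9, Tgfb2 and Wscd2. For Camk2a the log2 difference relative to the library was 0.05 ± 0.04 (SE, limma unadjusted p = 0.220), and it was 0.15 with lengths as deposited. For Mir9-2 it was -0.05 ± 0.02 (SE, limma unadjusted p = 0.0402, adjusted p = 0.537) and 0.05, so raw lengths and scaled lengths gave opposite signs.

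Within the gene lists no domain was called either. Of the 20 projection neuron domains 19 lay below 0 and 8 were narrower at an unadjusted p under 0.05 (median -0.08), where 153 of all 563 domains and 2.52% of all regions were. Of the 27 adhesion and guidance domains 26 lay below 0 and 17 were narrower (median -0.11). Of the 16 glutamatergic domains 14 lay below 0 and 5 were narrower (median -0.07), and of the 5 calcium/calmodulin kinase domains 4 lay below 0 and none was narrower (median -0.05). All domains had a median of -0.07, and the adhesion and guidance median lay further below 0 than that, a difference that was not tested. With the lengths as deposited each of these differences is higher by 0.107.

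Other measures of width gave no call among the domains. The longest single peak called no region at all with limma; 27 domains were longer and 36 shorter at an unadjusted p under 0.05, against 5.4% and 1.33% of all regions. The smallest p was at Nfib, with 0.75 ± 0.14 (SE) and a limma adjusted p of 0.627. The span from the first to the last peak called 10 regions and no domain; 2 domains were longer and 170 shorter at an unadjusted p under 0.05, against 6.67% and 2.1%.

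Regions that reached 4000 bp in one group alone were few. In all 4 transgenic libraries 661 regions reached it and in all 4 controls 608. In 7 regions all 4 transgenic and no control library reached 4000 bp, and in none was it the reverse. Of all regions tested, 4.1% had every transgenic length above every control length, and 0.214% had the reverse. These lengths are as deposited and not set relative to each library, and the transgenic lists covered more in total. Of these 7, 6 had summits under 15-fold, the lowest with 6.51-fold, among them the regions of Ceacam3, Nlrp5 and the pseudogene Cyp3a63-ps. The seventh was at Gabra5, the alpha-5 subunit of the GABA-A receptor that is abundant in hippocampal pyramidal cells, with a summit of 30.8-fold. It covered 3744, 3575, 3855 and 3900 bp in the controls and 4083, 4128, 4194 and 4249 bp in the transgenic libraries. The 7 regions were picked by their lengths, so no test is given for them.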

How the data were processed

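The authors deposited 1 peak list per H3K4me3 library, without a header, in the layout that MACS2 writes, on the genome build mm10. The submitters' processing notes name Bowtie2 2.0.2, MACS2, limma, DiffBind, deepTools 3.0.1, SAMtools 1.3.1 and FastQC 0.11.5. Their settings and the background library behind each list are not given in the sources used. Each deposited line places a peak and gives it a score in whole numbers, the fold enrichment of its summit, and −log10 values of p and q, all as the authors' peak caller wrote them. The smallest deposited −log10 q-values ran from 1.31 to 1.42. The score was not used, and the fold was used only within a list. The 2 samples called input were not analysed here. The letters in the sample descriptions differ from those in the list names, while the group names match.

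Merging, joining and covered lengths were computed in Python 3.11.15, and group differences with limma 3.58.1 in R 4.3.3 (trended and robust variance). The fit was also run on simulated lengths, made only for regions with a peak in all 8 libraries. That run does not cover the regions with a peak in fewer libraries. Gene positions came from RefSeq on GRCm38.p6, which shares its coordinates with mm10. Strands and starts were read from its promoter table, which lacks chromosome 18 and other genes; for these either end of the gene counted as a start. Exons, introns and untranslated regions were not used here. Intervals are 95% intervals of the fit.

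The domains, the 24 lists with 704 entries and the tests were chosen with earlier results of these data known. Domains named in the text were the 12 widest, 5 of smallest p broader and 5 narrower (as none was called), 3 on each side of the minimum, the 2 widest of each list, list microRNAs, and those with extreme spread, most peaks or longest peaks. A few of these are not reported here. Others were named after their values were seen, as examples. The alternatives were 2 other pseudocounts, no centring, other filters on regions, all chromosomes, equal numbers of top-ranked peaks, a −log10 q of at least 5, gaps of up to 500 bp closed, other minimum lengths, another variance model, a replicate block and leaving out each library. The restriction to tall domains was added after the data were seen.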

Additional observations from a re-analysis of the deposited data

Results flagged for a closer look

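In 5 of 124 groups of 4 libraries, 1 library stood so far from the rest that its gap passed Dixon's 95% critical value, and chance alone gives about 1 in 20 such groups. The 5 are thus near that rate. Among the lists as a whole, transgenic replicate 1 had 102285 peaks, far above the other transgenic lists. Among domains, the highest control library stood apart at Sox8 (5408 bp). The lowest transgenic library stood apart at Cacna1e (4830 bp) and at Sfi1 (5144 bp), and the highest at chr7:18379883-18388453 (7329 bp). The values at Cacna1e and chr7:18379883-18388453 belong to transgenic replicate 1, the library with the most peaks, and the part of that library in them was not tested.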

How the results depend on the processing

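Depth is unknown, the lists were called one library at a time, and 4 libraries a group limit what a test can show. The count of 563 domains followed the definition, with 1278 at 3000 bp (1122 coding genes), 233 at 5000 bp (186 coding genes), 182 by longest single peak, 860 with gaps of up to 500 bp closed, and 563 to 604 leaving out 1 library. Of the 10 regions called by covered length, the count was 0 with a pseudocount of 10 bp, with a peak in at least 4 libraries, with equal numbers of top-ranked peaks and with the replicate block. It was 17 with 500 bp, 39 without centring, 35 on all chromosomes, 1 with −log10 q of at least 5, 302 without trended or robust variance, 933 with a peak in at least 1 library, and 0 to 17 leaving out 1 library, with 0 without control replicate 1 or any single transgenic library and 17 without control replicate 3. Domains called numbered 1 without centring (chr4:3061507-3071879), 1 with gaps closed (chr17:3005822-3023923, limma adjusted p = 0.0268) and 65 with a peak in at least 1 library (61 narrower, 4 broader), and 0 under the other settings. The 163 domains at an unadjusted p under 0.05 became 100 with 500 bp, 51 without centring, 267 with at least 1 library, 74 with top-ranked peaks, 55 with −log10 q of at least 5, 2 without trended or robust variance and 118 to 230 leaving out 1 library. Their median difference of -0.0727 turned to 0.0342 without centring and was -0.0454 with top-ranked peaks, -0.0341 with −log10 q of at least 5, and -0.0962 to -0.0715 leaving out 1 library. Regions over 4000 bp differed by 434 with gaps closed (exact permutation p = 0.0286) and by 98.6 to 168 leaving out 1 library, where the highest was without control replicate 4. The span called 0 regions with the replicate block and 0 to 29 leaving out 1 library, and the longest peak 0 to 1, the 1 without transgenic replicate 4 being the low domain at chr4:146907695-146913755. The cause of these changes was not tested.

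Deviations of same-numbered libraries from their group means had correlations over regions of 0.0231, 0.0182, -0.0385 and 0.135. Pairs of unlike number ran from -0.148 to 0.0987. Pairing is not labelled, and these values cannot decide whether the numbers pair the samples. The replicate block left 0 domains called and 156 at an unadjusted p under 0.05.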
